A study of Mus musculus with 4 samples.

Results

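The collagen chains were taken as every probe set whose only platform gene symbol is Col, a number, the letter a and a number. The rule gave 82 of the 45037 probe sets that are not controls, from 42 genes. RNA came from NIH/3T3 cells, an established mouse fibroblast line, on 4 Affymetrix Mouse430_2 arrays, 2 of pseudopodia and 2 of cell bodies, numbered replicate 1 and replicate 2. All 4 samples carried the same treatment: after serum starvation the cells were left for 2 h to spread on a fibronectin-coated porous membrane, and then received lysophosphatidic acid (LPA), a lipid that stimulates migration, at 150 ng/ml in the lower chamber for 1 h. Protrusions that had grown through the pores were collected from the underside, and the rest of the cells from the upper side. Before collection all samples were fixed in 0.3% formaldehyde for 10 min, and the scraped extracts were then heated for 45 min at 70 C to undo the fixation. The cells had been grown with 10% calf serum before starvation. Unstimulated cells were not analysed here, and with 1 cell line the values describe that line. The samples are called independent in the series design text, but nothing says that they came from separate cultures, so p-values measure the spread between these arrays, which may be technical.

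Collagens are the main structural proteins of the extracellular matrix, and fibroblasts are their principal source. Each chain is made on ribosomes bound to the endoplasmic reticulum and is drawn into its lumen, where prolines and lysines are hydroxylated and chains wind around each other into a helix before secretion. Fibrillar chains build the cables of connective tissue, type IV chains build the sheet of basement membranes, type VI chains form beaded filaments around cells, and the fibril-associated chains, called FACIT, sit on the surface of fibrils. The comparison asks whether the RNAs of these secreted proteins differ in relative level between the protrusions and the cell body.

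Of the collagen RNAs with signal, 14 probe sets were lower in pseudopodia than in cell bodies and none was higher. Of these 14, 10 belonged to chains of type IV and type V, with Col4a5, Col4a6 and Col5a1 each counted by 2 probe sets. Type IV had 8 probe sets with signal, and those of type V were 3 of Col5a1, 2 of Col5a2 and that of Col5a3. Of the 82 probe sets, 45 from 28 genes passed the filter on low signal, a mean log2(signal + 32) of the scaled signals at or above the median of all probe sets, and the 14, from 11 genes, were lower at a Benjamini-Hochberg adjusted p under 0.05 in limma. Among all 22519 probe sets tested, 3.32% were called lower and 1.08% higher at the same adjusted threshold. At an unadjusted p under 0.05, 27 of the 45 were lower and none higher. The share of all probe sets at that unadjusted cut is not given, here or for the other fits below. The 11 genes were Col1a2, Col4a1, Col4a2, Col4a5, Col4a6, Col5a1, Col5a2, Col5a3, Col6a2, Col6a3 and Col16a1. Their called probe sets were between 1.77 and 3.57 times as high in cell bodies on the log2(signal + 32) scale. The added 32 makes these ratios smaller than those of the signals, most so for dim probe sets. Differences are given below as log2 of pseudopodia over cell body on the log2(signal + 32) scale, with the SE of the limma fit and 2 arrays in each fraction throughout, and signals are printed as deposited, before they were scaled for the test.

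The 45 probe sets had a median difference of -0.69, with -0.86 in the replicate 1 pair and -0.61 in the replicate 2 pair, while the median of all probe sets tested was -0.03. Both pseudopodia arrays were below both cell body arrays in 33 of the 45, where the background was 28.2%, and above both in 3, where it was 24.8%. At least 1.5-fold lower in each of the 4 array pairs were 18, against a background of 7.86%, and no probe set was at least that much higher, against 2.79%. Each array was scaled to the same trimmed mean, so these are levels relative to the total signal of a fraction. Absolute amounts of RNA in a protrusion cannot be read from them, and a lower collagen level cannot be told apart from a rise of other RNAs.

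The number of calls depended on the model of the spread, for the collagens and over all probe sets. With the replicate number as a block, which is also the scan day, 26 collagen probe sets were lower, the 14 among them, and none higher (1 was higher at an unadjusted p under 0.05), against 11.3% and 6.84% of all. That fit leaves 1 residual degree of freedom. Without the variance trend limma called none of the 45, with 21 lower at an unadjusted p under 0.05, and none of all probe sets. Without cell body replicate 1 or cell body replicate 2, none was called, nor was any of the 22519 probe sets (15 and 21 collagens were lower at an unadjusted p under 0.05). Without pseudopodia replicate 1 or pseudopodia replicate 2, 21 were lower, where the share over all probe sets was 11.8% and 9.56%. In each of these 4 fits the spread comes from 1 fraction only. The collagen median was between -0.83 and -0.59 in these 4 fits. With no filter on low signal, 1 of the 82 was called lower, against 0.304% of all, and at an unadjusted p under 0.05, 25 were lower and 2 higher. With a filter at the 75th percentile 14 were (background 4.63%), and after quantile normalization, median centring and scaling on the spiked hybridization controls 15, 11 and 15 (background 2.45%, 2.81% and 5.05%). The ratio of the 3' to the 5' control probe sets of beta-actin, a sign of RNA integrity, was 1.55 and 1.89 in cell bodies, against 1.77 and 3.41 in pseudopodia, while that of Gapdh was 0.919 and 0.946, against 0.960 and 1.01. The part of RNA integrity in the collagen values was not tested.

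**Figure D1:**
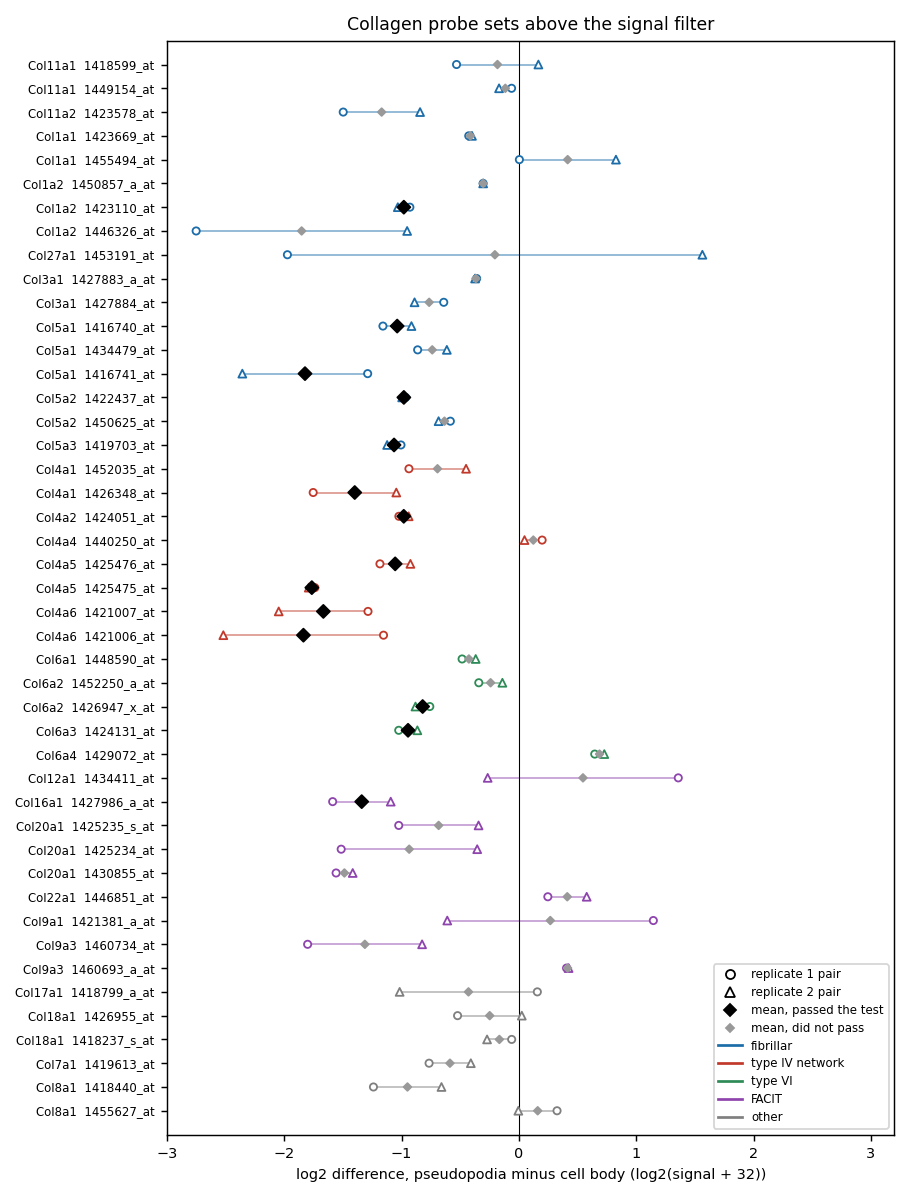
Log2 difference, pseudopodia minus cell body, of the 45 collagen probe sets above the signal filter. Circles give the replicate 1 pair, triangles the replicate 2 pair and diamonds the mean of both, large and black where the probe set passed the test; line colours mark the structural class. The 14 black diamonds all lie left of zero, between -1.84 and -0.82, and 7 probe sets have pairs on opposite sides of zero.

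The type IV chains, which polymerise into the basement membrane network, were the class with the lowest median. Of 8 probe sets above the filter, 6 were lower, from Col4a1, Col4a2, Col4a5 and Col4a6, where 3.32% of all probe sets were lower. The class had a median of -1.23 (-1.25 to -1.23 after median centring or quantile normalization). Col4a5 and Col4a6 are neighbours on the X chromosome, read in opposite directions away from a shared stretch. Their upstream sequences are shown because both genes were lower on every probe set above the filter. Those of Col1a2 and Col3a1, fibrillar chains that are described further down, are set beside them. The sequences are from RefSeq (GRCm38.p6), which had an entry for 33 of the 42 genes, and run 5' to 3' on the strand of the gene, from 250 bases before its annotated start. Those of Col4a5 and Col4a6 stop 50 and 20 bases before the start, where the annotated gene span begins. Capitals mark matches to the motifs CCAAT, to TATAAA and to GGGCGG, searched on both strands: the CCAAT box, the TATA box and the GC box of textbook promoters.
Col4a5, chrX:141475169-141475369, plus strand: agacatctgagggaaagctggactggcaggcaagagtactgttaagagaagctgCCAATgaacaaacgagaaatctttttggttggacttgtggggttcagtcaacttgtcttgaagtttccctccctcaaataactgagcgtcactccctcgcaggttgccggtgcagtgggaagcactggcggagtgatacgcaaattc
Col4a6, chrX:141474096-141474326, minus strand: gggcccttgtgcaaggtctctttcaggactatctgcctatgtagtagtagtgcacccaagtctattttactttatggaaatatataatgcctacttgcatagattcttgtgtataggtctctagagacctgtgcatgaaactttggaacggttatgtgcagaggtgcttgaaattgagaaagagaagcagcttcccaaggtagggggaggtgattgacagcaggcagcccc
Col1a2, chr6:4505368-4505617, plus strand: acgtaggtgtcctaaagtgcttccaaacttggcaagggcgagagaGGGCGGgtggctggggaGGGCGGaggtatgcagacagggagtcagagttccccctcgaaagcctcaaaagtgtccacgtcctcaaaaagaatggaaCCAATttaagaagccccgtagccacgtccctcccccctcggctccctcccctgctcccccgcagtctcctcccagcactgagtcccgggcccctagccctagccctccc
Col3a1, chr1:45311288-45311537, plus strand: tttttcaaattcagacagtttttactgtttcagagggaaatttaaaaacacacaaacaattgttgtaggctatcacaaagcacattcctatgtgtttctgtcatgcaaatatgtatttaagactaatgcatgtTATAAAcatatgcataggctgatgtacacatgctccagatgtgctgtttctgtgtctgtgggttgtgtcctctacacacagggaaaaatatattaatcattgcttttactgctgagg

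The starts of Col4a5 and Col4a6 in these entries lie 1343 bases apart. CCAAT was found in the stretches of Col4a5 and Col1a2, 1 match each, GGGCGG in that of Col1a2, with 2 matches, and TATAAA in that of Col3a1, with 1, and no matches overlapped. The CCAAT matches began 196 bases before the start in Col4a5 and 109 in Col1a2, and the TATAAA match 117 before that of Col3a1. Whether any match works as a promoter element was not tested. None of the 3 motifs was found in the stretch of Col4a6. Of 32851 promoters in the table, 33.8% hold CCAAT in the 250 bases before the start, 32.7% GGGCGG and 12.4% TATAAA, and 28.6% hold CCAAT in the 201 bases that were searched for Col4a5. The stretches differed in base composition, with 62.0% G and C in Col1a2, 35.2% in Col3a1, 49.8% in Col4a5 and 45.5% in Col4a6.

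Col4a5 encodes a type IV chain best known from kidney basement membranes. On probe set 1425475_at its deposited signal was 1025.7 and 802.4 in cell bodies, against 295.9 and 220.4 in pseudopodia. Both pseudopodia arrays were far below both cell body arrays, and the difference was -1.77 ± 0.25 (limma adjusted p = 0.0207), with -1.74 and -1.79 in the 2 replicate pairs. The second probe set of Col4a5, 1425476_at, drawn from the same source sequence, gave 3138.1 and 2711.4 in cell bodies against 1371.2 and 1420.1 in pseudopodia, a difference of -1.06 ± 0.18 (limma adjusted p = 0.0294).

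Col4a6, the partner of Col4a5 in some basement membranes, had signals of 458.4 and 550.1 in cell bodies, against 197.1 and 82.7 in pseudopodia on 1421006_at. The second pseudopodia array was the lower of the 2, so that the pairs differed by -1.15 and -2.52, with a mean of -1.84 ± 0.37 (limma adjusted p = 0.0409). On 1421007_at the signals were 698.2 and 593.1 against 276.7 and 131.3, a difference of -1.67 ± 0.34 (limma adjusted p = 0.0420). These 2 calls were close to the threshold: the first was lost after quantile normalization (adjusted p = 0.0534) and the second after median centring (adjusted p = 0.0534).

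Col4a1 and Col4a2 encode the chains found in nearly all basement membranes, where they join in one molecule. Col4a2 had 1 probe set, with signals of 2032.6 and 2132.8 in cell bodies, against 991.6 and 1103.7 in pseudopodia. The pseudopodia arrays were close to each other and well below the cell body arrays, and the difference was -0.98 ± 0.18 (limma adjusted p = 0.0348). Col4a1 was lower on 1426348_at, at 1656.1 and 1231.9 against 479.7 and 588.5 (-1.40 ± 0.23, limma adjusted p = 0.0276). Its brighter probe set 1452035_at stood at 3065.1 and 3450.7 against 1592.2 and 2520.0, a difference of -0.69 ± 0.24 (limma adjusted p = 0.147, and 0.00622 with the replicate block).

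The remaining type IV chains were dim. Col4a4, a chain of kidney basement membranes, had 1 of its 3 probe sets above the filter, with 50.2 and 56.1 in cell bodies, against 59.9 and 58.5 in pseudopodia, a difference of 0.12 ± 0.30 that was negative (-0.12) when arrays were scaled on the hybridization controls. Neither probe set of Col4a3, its partner, passed the filter.

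**Figure D2:**
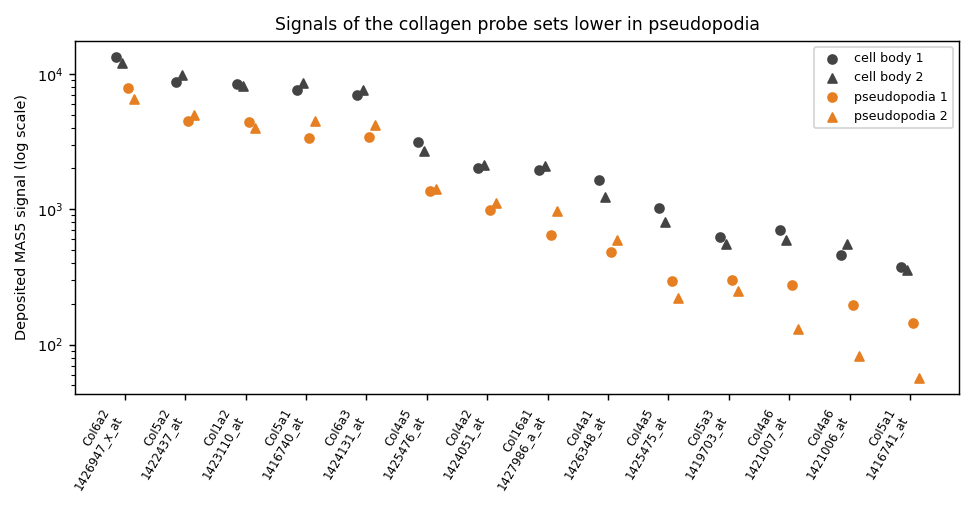
Deposited MAS5 signal, on a log scale, of the 14 collagen probe sets called lower in pseudopodia, ordered by mean signal. Grey marks are cell body arrays and orange marks pseudopodia arrays, with circles for replicate 1 and triangles for replicate 2. Both orange marks lie below both grey marks in every probe set, which the choice of called probe sets favours. Among all probe sets tested, 28.2% lay this way.

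Among the fibrillar chains, those of type V, which set fibril diameter as a minor part of type I fibrils, were lower in pseudopodia. The class had 17 probe sets above the filter from 9 genes. Of the 17, 5 were lower, from Col1a2, Col5a1, Col5a2 and Col5a3, where 3.32% of all probe sets were lower. Negative differences were found in 16, and the median was -0.74. With the replicate block 12 were lower, against 11.3% of all, and after median centring 3, against 2.81%.

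Col5a2 had signals of 8711.4 and 9835.5 in cell bodies, against 4449.5 and 4924.6 in pseudopodia on 1422437_at. The fractions were well separated, by -0.98 ± 0.16 (limma adjusted p = 0.0259). Its dimmer probe set 1450625_at stood at 442.1 and 411.4 against 289.4 and 249.8, a difference of -0.64 ± 0.22 that passed with the replicate block only (adjusted p = 0.147, and 0.0490 with the block).

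Col5a1, the chain present in most type V molecules, had 3 probe sets. On 1416740_at its signals were 7569.8 and 8537.9 in cell bodies, against 3379.6 and 4515.9 in pseudopodia, a difference of -1.04 ± 0.19 (limma adjusted p = 0.0326). On 1416741_at they were 377.6 and 356.2 against 145.0 and 56.6 (-1.82 ± 0.37, limma adjusted p = 0.0429), a call lost after median centring (adjusted p = 0.0533) and after quantile normalization (adjusted p = 0.0593). On 1434479_at, at 1620.1 and 1557.6 against 883.1 and 1011.6, the difference was -0.74 ± 0.19 (limma adjusted p = 0.0710, and 0.00656 with the replicate block). All 3 probe sets had both pseudopodia arrays below both cell body arrays, as had 28.2% of all probe sets tested.

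Col5a3, a chain of narrower distribution, had signals of 623.6 and 557.1 in cell bodies, against 302.5 and 247.0 in pseudopodia. Its difference was -1.06 ± 0.22 (limma adjusted p = 0.0447), and this call was lost after median centring, quantile normalization and scaling on hybridization controls, with adjusted p of 0.0588, 0.0672 and 0.0522. Its other probe set lay below the filter.

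The type I and III chains, the bulk of fibrils in skin and tendon, had small differences on their brightest probe sets. Col1a2 on 1450857_a_at gave 21029.2 and 23256.3 in cell bodies, against 17012.2 and 18817.9 in pseudopodia. The arrays did not overlap, but the difference of -0.31 ± 0.13 did not pass (limma adjusted p = 0.231). On 1423110_at the same gene gave 8356.0 and 8171.5 against 4378.0 and 3985.9, and this probe set was lower by -0.98 ± 0.15 (limma adjusted p = 0.0245). The dimmest probe set, 1446326_at, gave 171.9 and 99.4 against 11.9 and 43.6, a difference of -1.85 ± 0.44 (limma adjusted p = 0.0610, and 0.00322 with the replicate block).

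Col3a1, the chain of type III collagen, gave 16118.6 and 17996.3 in cell bodies, against 12547.8 and 13883.7 in pseudopodia on 1427883_a_at, a difference of -0.37 ± 0.14 (limma adjusted p = 0.175, and 0.0330 with the replicate block). Its dimmer probe set 1427884_at stood at -0.77 ± 0.23 (limma adjusted p = 0.105, and 0.0137 with the block).

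Col1a1, the partner of Col1a2 in type I collagen, was split between its probe sets. On 1423669_at it gave 17301.7 and 13801.3 in cell bodies, against 12855.1 and 10451.0 in pseudopodia, a difference of -0.41 ± 0.17 (limma adjusted p = 0.214, and 0.0191 with the replicate block). On 1455494_at it gave 2880.6 and 1521.4 against 2887.5 and 2710.5, a difference of 0.41 ± 0.29 (limma adjusted p = 0.449) that came from the replicate 2 pair: the pairs stood at 0.00 and 0.83. Without cell body replicate 2 it was -0.04. It was the only fibrillar probe set above the filter with a positive mean difference.

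The type XI chains, minor partners in cartilage fibrils, did not pass. Col11a2 stood at -1.17 ± 0.32, with 138.8 and 89.3 in cell bodies against 38.8 and 42.7 in pseudopodia (limma adjusted p = 0.0809, and 0.0191 with the replicate block). Col11a1 stood at -0.18 ± 0.24 and -0.12 ± 0.24 on its 2 probe sets, the second at 0.04 after quantile normalization. Col27a1 was not reproducible between pairs, with signals of 76.7 and 15.3 in cell bodies, against 7.6 and 76.5 in pseudopodia. Col2a1 of cartilage and Col24a1 had no probe set above the filter.

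Type VI chains, which assemble into filaments that link cells to the surrounding matrix, had 5 probe sets above the filter. Of these, 2 were lower, where 3.32% of all probe sets were lower. Col6a3, the largest of the classical type VI chains, had signals of 7001.1 and 7626.4 in cell bodies, against 3432.7 and 4176.6 in pseudopodia, a clear separation of -0.95 ± 0.17 (limma adjusted p = 0.0316). Col6a2 was lower on 1426947_x_at, at 13347.2 and 12000.0 against 7873.5 and 6503.5 (-0.82 ± 0.16, limma adjusted p = 0.0379). The suffix of that probe set marks probes that can also match other transcripts. The brightest Col6a2 probe set, 1452250_a_at, gave 13866.1 and 14224.0 against 10932.1 and 12895.5, a difference of -0.24 ± 0.14 (limma adjusted p = 0.373). Col6a1 gave 13344.6 and 13289.2 against 9531.1 and 10287.5, and stood at -0.43 ± 0.14 (limma adjusted p = 0.120, and 0.0192 with the replicate block). Col6a4 was the probe set nearest to the filter from above, with 13.4 and 24.9 in cell bodies, against 30.0 and 51.7 in pseudopodia. The nearest from below was that of Col13a1, with a mean log2(signal + 32) of 6.43 against 6.46 for Col6a4.

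Of the fibril-associated chains, Col16a1 was the 1 called gene, with 1 of 9 probe sets lower, against 3.32% of all. Its signals were 1957.7 and 2097.2 in cell bodies, against 640.5 and 974.6 in pseudopodia, and the difference was -1.34 ± 0.24 (limma adjusted p = 0.0315). The other 8 probe sets of the class above the filter were dim, with means of about 100 or less. Those of Col20a1 were all negative, at -0.68, -0.94 and -1.49. The last had 71.2 and 53.7 in cell bodies against 13.6 and 10.1 in pseudopodia, and passed the filter through the cell bodies only. It was not called in the fit reported (limma adjusted p = 0.0696), but was with the replicate block (0.0238) and on hybridization controls. Because of the way it passed the filter, these calls are no separate support. Col9a3 stood at -1.31 ± 0.45 on 1460734_at (limma adjusted p = 0.140, and 0.0214 with the replicate block) and 0.41 ± 0.36 on 1460693_a_at. Probe set 1460734_at also passed the filter through the cell bodies only. Col12a1, Col9a1 and Col22a1 had positive means of 0.55, 0.27 and 0.41 that did not pass, and the pairs of the first 2 were of opposite sign.

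The other 6 probe sets above the filter gave no call by limma, with 2 at an unadjusted p under 0.05, a cut at which the share of all is not given here. Col8a1, a chain of hexagonal networks in vessels and the eye, gave 655.7 and 313.1 in cell bodies, against 268.3 and 192.2 in pseudopodia on 1418440_at, a difference of -0.95 ± 0.36 (limma adjusted p = 0.176, and 0.00700 with the replicate block). A second probe set of Col8a1 stood at 0.16 ± 0.40, or -0.13 when scaled on hybridization controls. Col7a1, which forms the anchoring fibrils of skin, stood at -0.59 ± 0.25 (limma adjusted p = 0.221), with 234.7 and 179.5 in cell bodies against 131.4 and 131.1 in pseudopodia. The transmembrane collagen Col17a1 and the multiplexin Col18a1, a heparan sulfate proteoglycan, stood at -0.43 ± 0.35 for the first and at -0.25 ± 0.28 and -0.17 ± 0.27 for the second.

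The 37 probe sets below the filter had signals between 0.5 and 57.9 on single arrays. Of the 42 genes, 14 had no probe set above it, namely Col2a1, Col4a3, Col6a5, Col8a2, Col9a2, Col10a1, Col13a1, Col14a1, Col15a1, Col19a1, Col23a1, Col24a1, Col25a1 and Col26a1. Among them are Col2a1, Col9a2 and Col10a1, chains of cartilage, while Col11a1 and Col11a2 of cartilage fibrils, and Col9a1 and Col9a3, had probe sets above the filter. In the 37, 14 differences were negative and 23 positive, with a median of 0.17, and in 15 the pairs disagreed in sign. The counts of lower collagens therefore refer to probe sets with signal, not to all 82.

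The size of the difference varied with the brightness of the probe set. Below a mean signal of 100, the 13 collagen probe sets had a median of -0.17 and none was called by limma, where 1.26% of all were called lower. At an unadjusted p under 0.05, 4 of the 13 were lower, and the share of all at that cut is not given here. From 100 to 1000 the median of 16 was -0.73 and 6 were called lower, against a background of 4.58%. From 1000 to 10000 the median of 11 was -0.98 and 8 were called lower, against 4.85%. All probe sets in these 3 ranges had medians of -0.05, -0.08 and 0.12. Above 10000 lay 5 collagen probe sets, the brightest of Col1a1, Col1a2, Col3a1, Col6a1 and Col6a2, with a median of -0.37 and no call. All probe sets above 10000 had a median of 0.35, and only 24 of 390, or 6.15%, had a negative difference, of which these 5 were part. None of the 390 was called lower by limma, and 10 were lower at an unadjusted p under 0.05, 3 of them collagens. After quantile normalization, which gives all arrays the same distribution, the probe sets of Col1a2, Col3a1, Col6a1 and Col6a2 among the 5 passed, at -0.64, -0.68, -0.77 and -0.58 (limma adjusted p from 0.0227 to 0.0375). In the fit reported they stood at -0.31, -0.37, -0.43 and -0.24. Over all probe sets 2.45% were called lower after quantile normalization, and the share above 10000 is not given. Whether other bright probe sets moved alike was not tested.

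**Figure D3:**
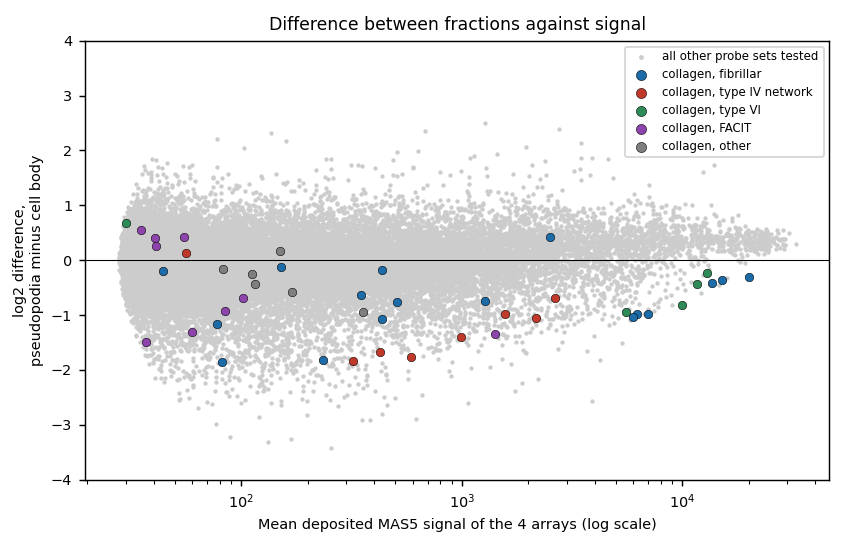
Log2 difference, pseudopodia minus cell body, against the mean deposited signal of the 4 arrays on a log scale, for all 22519 probe sets tested (grey) with the 45 collagen probe sets in the colour of their class. At a signal above 10000 the grey cloud lies above zero, with a median of 0.35, and the 5 collagen probe sets there lie below zero, between -0.43 and -0.24.

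Probe sets of 1 gene did not always give the same difference, and whether the brightest differs from the others was not tested. Of 14 collagen genes with at least 2 probe sets above the filter, the brightest was the one nearest to zero in 9, or 64.3%, where the share over all 5035 such genes was 47.0%. The spread was wide in Col1a2, from -1.85 to -0.31, and in Col9a3, from -1.31 to 0.41. Where a gene is represented by its brightest probe set, 6 of the 28 collagen genes were lower (Col4a2, Col4a5, Col5a1, Col5a2, Col6a3 and Col16a1) and none higher, with p adjusted over 10962 genes, of which 1.64% were lower and 0.876% higher. The median over the 28 was -0.43 against 0.01 over all genes. With the replicate block 14 were lower, against 9.63% of all genes, and after quantile normalization 10, against 1.79%.

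Of the genes that handle or bind collagen, 4 enzymes that modify its chains in the endoplasmic reticulum were lower and the receptor Ddr2 was higher. The p-values in this and the next paragraph are by limma, adjusted over genes, each gene by its brightest probe set. Of 18 measured modifying enzymes and chaperones, 4 were lower and none higher, where 1.64% of all genes were lower and 0.876% higher. The median was -0.77, and the values reached from -1.66 to 0.27. With the replicate block 13 were lower, against 9.63% of all genes. P4ha2 and P4ha1, catalytic subunits of prolyl hydroxylase, stood at -1.66 ± 0.20 (adjusted p = 0.0238) and -1.38 ± 0.19 (adjusted p = 0.0312). Plod1, a lysyl hydroxylase, gave signals of 3067.1 and 2508.5 in cell bodies, against 1025.9 and 917.8 in pseudopodia (adjusted p = 0.0268), and Colgalt1, which adds galactose to hydroxylysine, at -0.97 ± 0.19 (adjusted p = 0.0481). Serpinh1, the collagen chaperone Hsp47, stood at -0.81 and did not pass. Of 14 measured matrix proteins other than collagens, 2 were lower, namely the glycoproteins Fbln2 (-1.51 ± 0.17, adjusted p = 0.0238) and Thbs1 (-1.78 ± 0.30, adjusted p = 0.0397). That list had a median of -0.50 and 12 negative values. Fn1, which encodes fibronectin, stood at -0.06. Bgn, a proteoglycan, stood at 0.42 ± 0.13 (adjusted p = 0.122, and 0.0169 with the block).

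Enzymes that act after secretion gave no call by limma, and 2 of the 6 measured were at an unadjusted p under 0.05 (the share of all genes at that cut is not given). Their median was -0.30, with Bmp1, which cleaves the end of procollagen, at -1.02 ± 0.23 (adjusted p = 0.0596) and the lysyl oxidases Loxl3, Lox and Loxl1 at -0.89, -0.36 and -0.24. The other probe set of Lox was at -1.61, that of Bmp1 at -1.52 and that of Loxl1 at -0.20. Bmp1 and Loxl3 passed with the replicate block (adjusted p = 0.00166 and 0.00427). The 12 measured genes listed for export of large cargo from the endoplasmic reticulum had a median of -0.01 that was positive after quantile normalization (0.10). In that list Klhl12, a ubiquitin ligase adaptor that enlarges transport vesicles for procollagen, was higher at 1.15 ± 0.22 (adjusted p = 0.0473), with signals of 165.6 and 154.2 in cell bodies, against 367.7 and 382.3 in pseudopodia. Sar1b, a GTPase of the same vesicles, stood at 0.61 ± 0.18 (adjusted p = 0.108, and 0.00695 with the block), and Sec31a at -0.34. Tango2 stood at 0.43, but its other probe set was at -1.06, and whether it has a part in this export was not tested. Of 5 measured receptors and uptake proteins, Ddr2, a receptor kinase for fibrillar collagen, was higher at 1.54 ± 0.28 (adjusted p = 0.0428), with 2185.8 and 1630.0 in cell bodies, against 7311.8 and 4194.2 in pseudopodia. The other receptors were negative without passing: the integrin chain Itgb1 stood at -0.88, Mrc2, which takes up collagen, at -0.94, and Itga10 at -0.49. Itgb1 and Mrc2 passed with the block (adjusted p = 0.00802 and 0.00257). The calls of Klhl12 and Ddr2 depended on the setting: neither was called with no filter (adjusted p = 0.0668 for Ddr2 and 0.0659 for Klhl12), without the variance trend (0.168 and 0.163), without cell body replicate 1 (0.350 for both), without cell body replicate 2 (0.342 and 0.351), after median centring (0.0577 and 0.0603) or on hybridization controls (0.125 and 0.220). Ddr2 also missed the threshold after quantile normalization (0.0512) and Klhl12 with a pseudocount of 16 (0.0503).

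**Figure D4:**
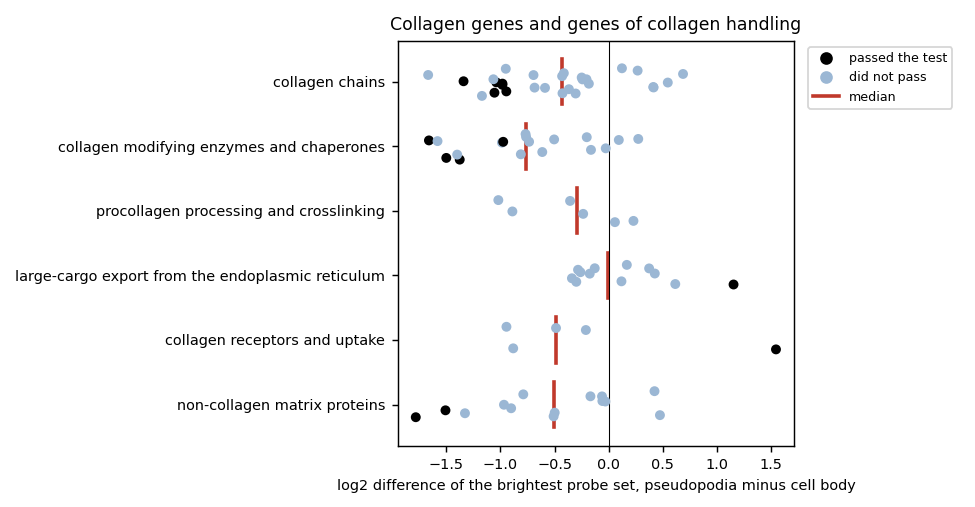
Log2 difference of the brightest probe set of each gene, pseudopodia minus cell body, for the 28 collagen genes and 5 lists of genes that handle or bind collagen or share the matrix with it. Black points passed the test, blue points did not, and the red bar is the median of the group. Medians run from -0.77 in the modifying enzymes to -0.01 in the export list, and the black points right of zero are Klhl12 and Ddr2.

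The arrays were checked against cell type markers. Of 8 fibroblast markers 7 passed the filter, and their summed signal was between 77316 and 77727 in cell bodies and between 85292 and 85968 in pseudopodia. Of 4 endothelial markers only Kdr passed, with Pecam1 below it, and of 4 blood markers on the array Cd14 and Cd68, with Ptprc below it. The summed endothelial signal was 39.3 and 62.6 in cell bodies, against 64.2 and 129.8 in pseudopodia, and that of blood 342.0 and 309.8 against 228.3 and 254.0. Of 6 epithelial markers 4 passed, Krt14 being the brightest, with sums of 2953.1 and 2598.0 against 2412.0 and 2822.9. Of the muscle and fat markers only Des passed, with a sum of 109.5 and 56.3 against 126.7 and 118.6. Of the cartilage and bone markers only Sox9 passed, and their sum was 2250.0 and 1941.6 in cell bodies, against 1456.1 and 1631.9 in pseudopodia. Both pseudopodia arrays were thus below both cell body arrays, as they were for blood. For the fibroblast, the endothelial and the muscle and fat sums, both were above. Among all probe sets tested, 28.2% lay below in this way and 24.8% above. Of the 16 markers measured, limma called none in either direction, with 3 at an unadjusted p under 0.05 (the share of all genes at that cut is not given). These were Pdgfra (-0.92 ± 0.21, adjusted p = 0.0632), Sox9 (-0.46 ± 0.19, adjusted p = 0.218) and Vim (0.27 ± 0.12, adjusted p = 0.238). The part of other cell types in the collagen values was not tested.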

How the data were processed

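The deposited values are intensities, 1 for each probe set on each array, on the linear MAS5 scale per the submitters' processing notes; its version and scaling target are not given in the sources used here. All arrays had the same trimmed mean of 250.0 (2% trimmed at each end), so the authors had scaled them. The deposited scanner files hold other values, the array and scanner settings: per the file headers, 1 chip lot, 1 scanner and 2 scan days, 1 for each replicate number. This shared day, and an experiment code in the design text, pair the arrays; the change from replicate 1 to replicate 2 correlated between the fractions with r = 0.243 over probe sets, which are not independent.

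Arrays were brought to a trimmed mean of 500 and analysed as log2(signal + 32), which understates changes of dim probe sets, with limma 3.58.1 in R 4.3.3 (variance trend, two-sided, no block), adjusted over all 22519 probe sets kept; the procedure was tested on simulated data. An exact permutation of so few arrays cannot approach the threshold and was not run. Because MAS5 subtracts the signal of mismatch probes, values of dim probe sets are noisy. Gene symbols are those of the platform annotation (34958 probe sets with 1 symbol, 932 with several, 9211 unnamed); no genome was used, so probe positions within genes were not analysed here. Genes of the lists stand by their brightest probe set, from the same fit. All collagen genes with a kept probe set are named, and of each list up to 4 genes by the moderated statistic; Serpinh1 and Fn1 were singled out after their values were seen. The collagens, the lists and the tests were chosen with earlier results of these data known.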

Additional observations from a re-analysis of the deposited data

How the results depend on the processing

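The count of 14 lower collagen probe sets was the same with a pseudocount of 16 or 64 and with a filter at the 75th percentile, and was 15, 11 and 15 after quantile normalization, median centring and scaling on hybridization controls. It was 26 with the replicate block, 1 without a filter and 0 without the variance trend, and 0 to 21 when 1 array was left out. None was higher in any of these fits. The median of -0.69 moved to -0.25 without a filter, -0.95 with the stricter filter and -1.01 on hybridization controls, which moved the median of all probe sets to -0.31; relative to that median it was -0.70, against -0.67 in the fit reported. By brightest probe set, the 6 lower genes became 10 after quantile normalization, 14 with the replicate block, 0 without a filter or without the variance trend, and 0 to 11 with 1 array left out. The 6 lower genes over the 5 lists became 21 with the replicate block, 0 without the variance trend and 0 to 22 with 1 array left out. The 2 higher became 1 with a pseudocount of 16 or quantile normalization, 4 with the block, 0 without a filter, after median centring, on hybridization controls or without the variance trend, and 0 to 4 with 1 array left out. The replicate block changed no call among the 14.

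Signs that turned belonged to uncalled probe sets: on hybridization controls Col4a4 (-0.12) and Col8a1 1455627_at (-0.13), after quantile normalization Col11a1 1449154_at (0.038), and with 1 array left out Col12a1 (-0.35 to 1.45), Col9a1 (-0.18 to 0.72), Col1a1 1455494_at (-0.042 to 0.87), Col27a1 (-1.19 to 0.78), Col8a1 1455627_at (-0.36 to 0.68) and Col17a1 (-0.89 to 0.028). The cause was not tested, beyond that a fit without 1 array lacks its value. Low signal limits the reading of the 37 collagen probe sets below the filter.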
